A study of Homo sapiens with 4 samples.

Results

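The comparison of LY75-R-S with LY75-KO-S covered 28282 differentially methylated regions (DMRs), which are all 1000-bp tiles in the authors' deposited table for these clones, out of 72455 distinct tiles listed in any of the 3 deposited tables. The clones were made from SKOV3, a widely used human line of ovarian cancer cells that grow with mesenchymal features. In LY75-KO-S, LY75 was inactivated by CRISPR and the cells were described as epithelial (E). LY75-R-S, deposited under the name Ly75-OV-S, was derived from the shRNA knockdown clone sh-LY75-S and re-expressed LY75 from a cDNA that this shRNA does not target, and these cells were described as mesenchymal (M). For context, a further table compared shC-S, a control shRNA clone, with sh-LY75-S, and a mix set both M clones against both E clones. Each clone was a stable line represented by 1 library, so LY75 status, the shRNA vector, the re-expressed cDNA and the separate clonal histories of LY75-KO-S and LY75-R-S cannot be told apart. Methylation data do not measure the E or M phenotype, and it was not checked here.

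Methylation of cytosine in CpG dinucleotides is placed by de novo DNA methyltransferases and copied at replication by a maintenance enzyme, and in promoters rich in CpGs it is commonly associated with silent genes. Reduced representation bisulfite sequencing (RRBS) cuts DNA with MspI at CCGG, so it reads mostly CpG-rich fragments. LY75, also named DEC205, is an endocytic receptor of the mannose receptor family that takes up antigens in dendritic cells.

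Values are differences in percent methylation between the libraries, in percentage points, as given in the authors' deposited table. Each has a q, the p-value adjusted by the authors with methylKit, which depends on the number of reads as well as on the difference. A positive value was read as higher in LY75-KO-S (hypermethylated) and a negative value as lower (hypomethylated). The files do not state the order of subtraction. The study describes genes as hyper- or hypomethylated in E cells, and all 3 tables were read in that order, E minus M. The signs show that the tables share 1 order: of 2660 DMRs in the mix and this table but not in the knockdown table, 2629 (98.8%) had the sign of the mix, and of 12801 in the mix and the knockdown table alone, 12743 (99.5%) did. The tables give neither reads nor methylation per library, so depth is unknown and differences between the tables below are values side by side, with no test. CpG numbers of a tile are those of its reference sequence, and how many of them were read is unknown.

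The sequences of 5 promoter tiles are shown, because these tiles are among those with the smallest q of the promoter differences of 70 points or more, or, at DLL4 and HOXA5, because the promoter had more than 1 DMR and all had the same direction. Each sequence is the MspI fragment of the tile that holds the most CpGs and touches no annotated exon, on the plus strand of GRCh37 (hg19), with CpGs in capitals. The differences are those of the whole tile, and which fragments of the tile were read is unknown. The tiles of HEYL and DLL4 were hypermethylated in LY75-KO-S, and their fragments hold 17 and 13 CpGs.
HEYL, chr1:40105438-40105537: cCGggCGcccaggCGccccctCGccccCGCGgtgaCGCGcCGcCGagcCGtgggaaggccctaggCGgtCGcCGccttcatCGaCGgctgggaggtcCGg
DLL4, chr15:41220166-41220285: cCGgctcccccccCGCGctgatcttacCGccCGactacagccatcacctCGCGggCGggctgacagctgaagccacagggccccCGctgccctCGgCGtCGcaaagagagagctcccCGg

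The tiles of TNFRSF8, ZNF678 and HOXA5 were hypomethylated, with 7, 10 and 15 CpGs in the fragment.
TNFRSF8, chr1:12123764-12123864: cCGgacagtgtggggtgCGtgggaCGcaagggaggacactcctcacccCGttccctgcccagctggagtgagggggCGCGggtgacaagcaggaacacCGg
ZNF678, chr1:227751504-227751601: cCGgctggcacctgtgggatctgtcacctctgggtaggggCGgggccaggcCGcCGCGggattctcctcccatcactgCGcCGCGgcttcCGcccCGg
HOXA5, chr7:27184437-27184573: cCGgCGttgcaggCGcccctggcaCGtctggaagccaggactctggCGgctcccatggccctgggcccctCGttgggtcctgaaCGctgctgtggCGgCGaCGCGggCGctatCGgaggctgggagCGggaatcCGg

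These fragments ranged from 81.0% G and C at HEYL to 69.3% at TNFRSF8. HEYL, a transcriptional repressor that responds to Notch signalling, differed by 99.9 points in a tile with 92 CpGs, with a q listed as 0. MEIOB, which acts in meiotic recombination, differed by 100.0 points (q = 2.75e-139). In the opposite direction stood TNFRSF8, the receptor CD30, with -83.7 points (q = 2.43e-228), USP2, a deubiquitinase, with -75.3 points (q = 9.68e-180), and ZNF678, a zinc finger gene, with -100.0 points (q = 1.15e-139).

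Hyper- and hypomethylated DMRs were close to balanced. Of the 28282 DMRs, 15469 (54.7%, 95% Wilson interval 54.1 to 55.3%) were hypermethylated in LY75-KO-S and 12813 were hypomethylated. That interval reflects counting error and not the spread between cultures, since each clone had 1 library. The sizes were alike in both directions, with a median absolute difference of 41.8 points for hypermethylated and 42.2 points for hypomethylated DMRs. Over all DMRs the quartiles were 31.9 and 55.8 points.

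**Figure D1:**
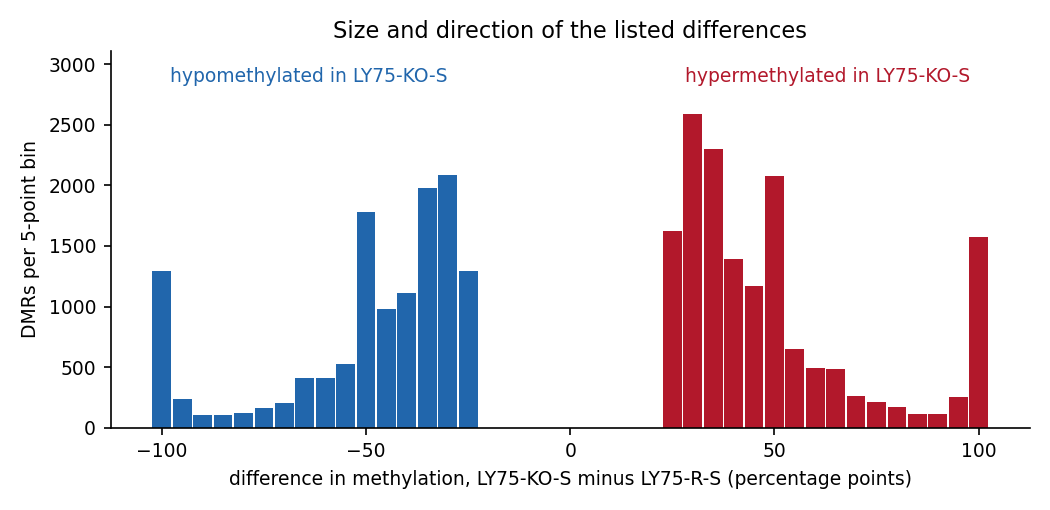
Number of DMRs in 5-point bins of the difference in percent methylation, LY75-KO-S minus LY75-R-S, with hypermethylated bins in red and hypomethylated bins in blue. Both sides peak near the 25-point threshold of the table and again at 50 and 100 points, and 2651 DMRs lie at 100 points.

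Certain sizes recurred, as the plot of difference sizes shows. A difference of 100 points, the largest possible, was found at 2651 DMRs (9.37%), 1453 hypermethylated and 1198 hypomethylated. Exactly 50 points was listed for 1896 DMRs (6.70%), counting values within 1e-06 points as equal. The DMRs at 100 points had a median q of 2.26e-20, beside 7.74e-14 for all DMRs, and a median of 15 CpGs, beside 17. The share of DMRs at 100 points was 14.1% in tiles with 1 to 4 CpGs and 2.75% in tiles with 80 CpGs or more.

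The DMRs with smaller q leaned further towards hypermethylation. With q at or below 1e-20, 57.0% of 7485 DMRs were hypermethylated, with q at or below 1e-40, 60.7% of 1581, and with q at or below 1e-80, 62.0% of 229 (55.6 to 68.0%). Of these 229 DMRs, 119 (52.0%) lay in promoters, within 2 kb of a transcription start site (TSS), and 99 of the 119 held 40 CpGs or more. The hypermethylated share was 55.5% in these promoters (66 of 119, 46.5 to 64.1%) and 69.1% outside promoters (76 of 110, 59.9 to 77.0%). The values with the smallest q, singled out after they had been seen, included genes of several kinds. CADM2, a neuronal cell adhesion gene, had an intronic tile of 99.3 points (q = 1.03e-309). SLC16A3, the lactate exporter MCT4, had a promoter tile of -61.1 points (q = 9.81e-273). At SNRPN, an imprinted gene of chromosome 15, an intronic tile from 25123001 to 25124000 differed by 68.6 points (q = 9.11e-257).

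LY75 itself displayed no DMR near its TSS. The gene is on the minus strand of chromosome 2 (160659866 to 160761267, GRCh37), and 6 tiles of the gene and its 2-kb flanks were assayable, that is, an MspI fragment of 40 to 220 bp holds a CpG that a 50-bp read from either end reaches. A single intronic tile, from 160695001 to 160696000 with 10 CpGs, was listed at -100.0 points (q = 8.03e-20). For comparison, the knockdown table listed promoter tiles of LY75 at 70.5 and 87.7 points, and neither tile was listed between LY75-KO-S and LY75-R-S. The neighbouring genes CD302, a C-type lectin, and PLA2R1, a phospholipase A2 receptor, had no DMR here. The nearest DMRs outside the gene started at 160281001 (53.8 points) and at 161051001 (-67.9 points). These values describe methylation and do not check the inactivation or the re-expression of LY75. Of the mannose receptor family, MRC2 was the member with a promoter DMR, at -34.7 points (q = 2.32e-07).

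Across the genome 384553 tiles were assayable and 25488 of them were listed, which gives a background of 6.63%. A further 2794 DMRs lay in tiles outside this set. Chromosomes differed little in direction. The hypermethylated share ran from 52.8% (50.3 to 55.3%) on chromosome X to 57.0% (53.2 to 60.7%) on chromosome 18, and these intervals overlap. In the knockdown table the share ran from 54.5% on chromosome 4 to 73.4% on chromosome 22. DMR density among autosomes ran from 52.2 per 1000 assayable tiles on chromosome 13 to 74.6 on chromosome 18, and chromosome X was at 90.5. Chromosome Y held 9 DMRs and was left out of these ranges.

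**Figure D2:**
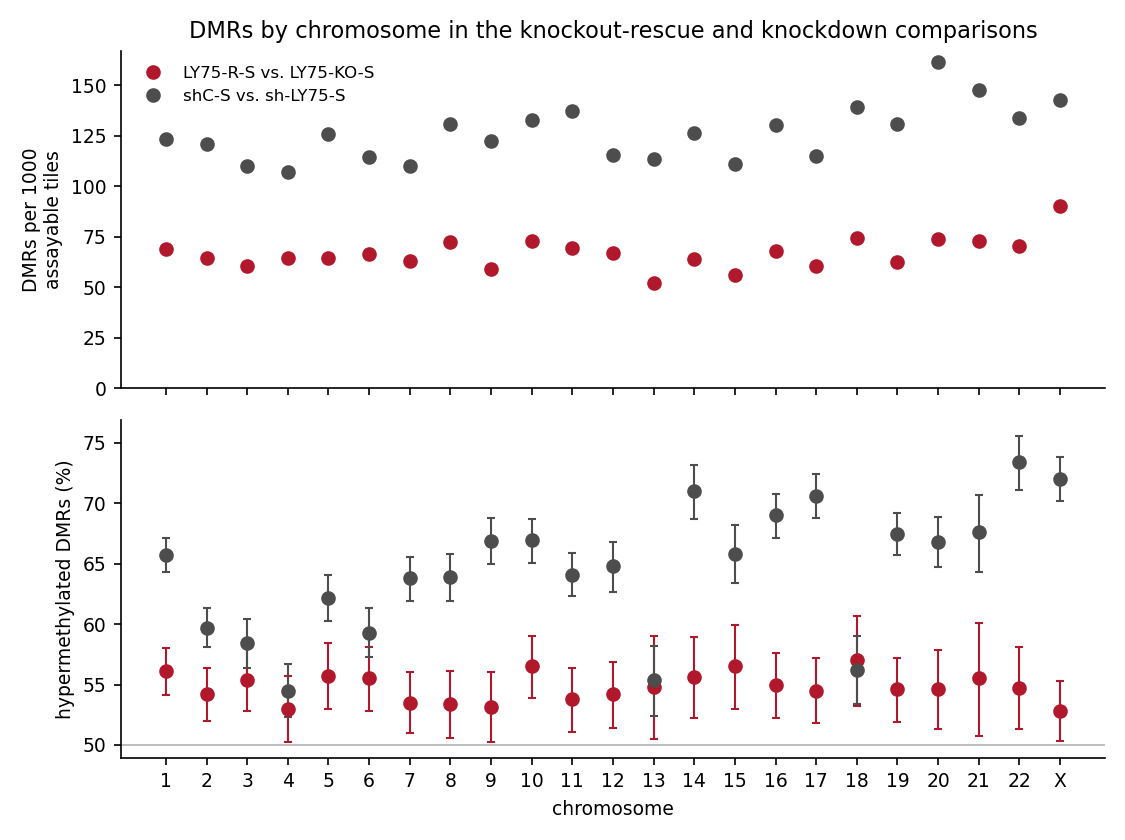
DMRs per 1000 assayable tiles (upper panel) and share of hypermethylated DMRs in percent with 95% Wilson intervals (lower panel) by chromosome, with the knockout and rescue clones in red and the knockdown table in grey. In red, the density is highest on X, at 90.5, while the hypermethylated share stays between 52.8 and 57.0%.

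On chromosome X the density was highest in promoters. Chromosome X held 3.88% of the assayable tiles and 1498 DMRs (5.30%). Within 2 kb of a TSS, X had 141.5 DMRs per 1000 assayable tiles and the autosomes 53.7. In introns the values were closer, 73.7 on X and 61.7 on autosomes. The gap was widest at promoter tiles with 40 CpGs or more, where X had 172.0 DMRs per 1000 and the autosomes 26.4. Both directions were present in these CpG-dense X promoters: 83 of 152 DMRs (54.6%, 46.7 to 62.3%) were hypermethylated. The same class of tiles was hypermethylated in 81.4% of its DMRs in the knockdown table. Of the 229 DMRs with q at or below 1e-80, 42 (18.3%) were X promoters, which made up 313 (1.11%) of all DMRs.

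Among the 40 DMRs with the smallest q of the whole table, 10 were X promoters, 6 hypermethylated and 4 hypomethylated, beside 1.11% of all DMRs. NKAP, part of a Notch corepressor complex, had 41.7 points (q = 7.90e-273) and BCOR, a corepressor of BCL6, had 55.3 points (q = 4.08e-225). DKC1, the pseudouridine synthase dyskerin, had 51.3 points (q = 1.94e-237) and MAGT1, a magnesium transporter, 62.8 points (q = 1.05e-204). THOC2, an mRNA export factor, had 32.6 points. RPS6KA3, the kinase RSK2, had -81.0 points (q = 2.74e-166), IL13RA1, a subunit of the interleukin 13 receptor, -61.8 points (q = 7.46e-164) and VMA21, an assembly factor of the vacuolar proton pump, -51.0 points (q = 8.93e-143). NHSL2 and RTL5 share a tile of -47.1 points (q = 2.01e-243).

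DMRs were fewest where CpGs are dense. Density fell with each step in CpG content, from 96.9 DMRs per 1000 assayable tiles at 1 to 4 CpGs to 65.0 at 20 to 39, 48.5 at 40 to 79 and 17.9 at 80 CpGs or more. In the knockdown table these values were 148.2, 122.9, 180.5 and 148.5, with no steady fall. The median absolute difference fell along the same classes, from 49.0 to 34.3 points. Direction did not follow them, since the hypermethylated share lay between 53.5% (49.3 to 57.8%) and 55.9% (53.5 to 58.2%) in every class.

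**Figure D3:**
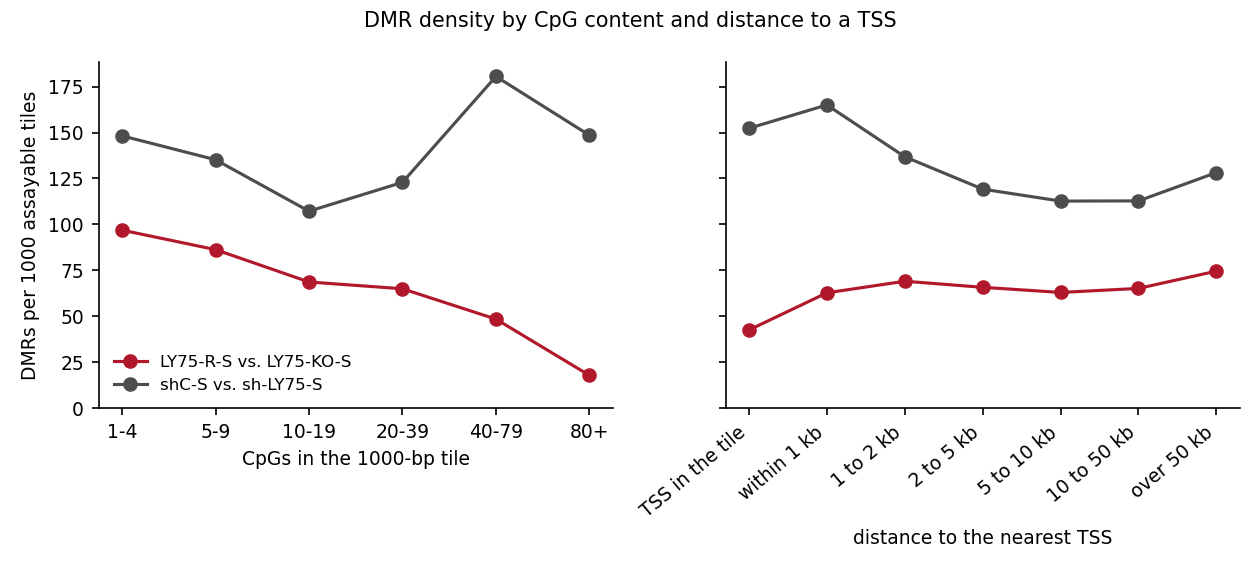
DMRs per 1000 assayable tiles by number of CpGs in the tile (left) and by distance from the tile to the nearest TSS (right), with the knockout and rescue clones in red and the knockdown table in grey. The red line falls from 96.9 to 17.9 with CpG content and is lowest, at 42.6, in tiles that hold a TSS.

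By gene feature, taking promoter (within 2 kb of a TSS), exon, intron and intergenic in this order of precedence, 3595 DMRs (12.7%) lay in promoters, 3425 (12.1%) in exons, 9933 (35.1%) in introns and 11329 (40.1%) between genes. Promoters had the lowest density, 56.7 per 1000 assayable tiles, and intergenic tiles the highest, 73.4. The knockdown table had 153.5 in promoters and 133.9 between genes, the reverse order. Tiles that hold a TSS had 42.6 DMRs per 1000, tiles within 1 kb 62.8 and tiles over 50 kb away 74.6. In promoters of 40 to 79 CpGs the density was 39.4, and between genes 60.4 at the same CpG content. The hypermethylated share was 53.6% in promoters, 55.6% in exons, 55.6% in introns and 53.9% between genes.

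Neighbouring DMRs seldom formed blocks of 1 direction. Of 1049 pairs of adjacent listed tiles, 569 (54.2%, 51.2 to 57.2%) had the same direction, where the overall hypermethylated share alone gives 50.4%. In 12 of these pairs both tiles had an identical difference and p-value, as when the same reads cross the tile border, and without them the share was 53.7%. The knockdown table had 82.3% over 5360 pairs. At 10 kb apart the shares were 48.0% and 70.9%, and at 100 kb 48.2% and 65.4%. Of the pairs here with both tiles at 70 points or more, 29 of 46 (63.0%, 48.6 to 75.5%) had the same direction, and among promoter pairs 73 of 150 (48.7%).

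**Figure D4:**
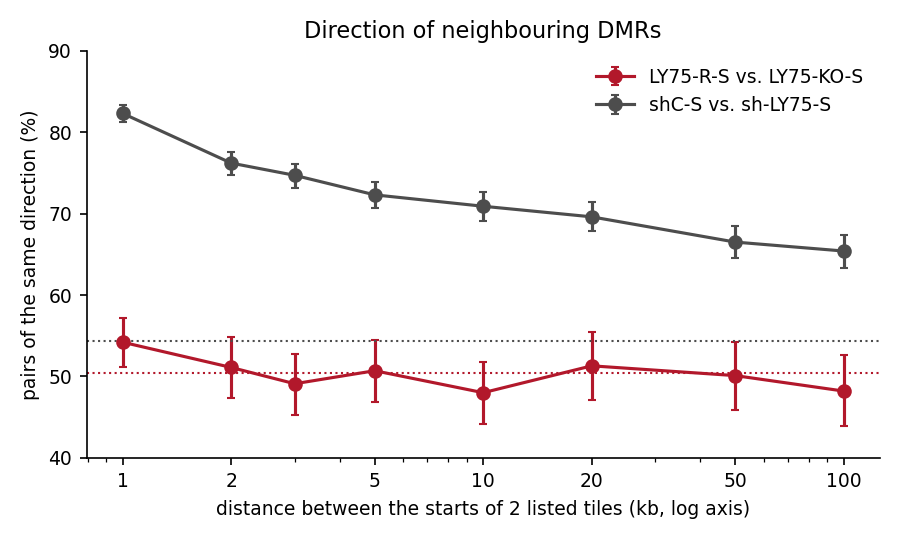
Share of pairs of listed tiles with the same direction, in percent with 95% Wilson intervals, by distance between the tiles on a log axis, with the knockout and rescue clones in red and the knockdown table in grey. Dotted lines give the share expected from each table's hypermethylated share alone, 50.4% for the red one, around which the red points lie from 2 kb on.

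Joined by direction, the DMRs formed 27158 single tiles, 541 runs of 2 tiles and 14 runs of 3, and none was longer. In the knockdown table the longest run held 8 tiles. The run of 3 with the largest mean among hypermethylated ones started in an exon of DLX1, a homeobox factor of forebrain interneurons, with 32.0, 71.7 and 92.9 points. Other hypermethylated runs lay in introns of MUC2, the main secreted mucin of the intestine (35.3, 26.2 and 100.0 points), in introns of the phospholipase gene PLCH2 (33.8, 29.9 and 82.8 points) and in exons of the adaptor gene SHD (43.5, 44.2 and 41.3 points). One more lay between genes on chromosome 20 from 62114001.

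Hypomethylated runs were of like length. The one with the largest mean lay between genes, upstream of LSP1, a leukocyte actin-binding protein, with -34.4, -99.0 and -96.0 points. MX2, an interferon-induced GTPase with antiviral activity, had -100.0, -32.2 and -40.0 points over exons and an intron, and PRDM16, a zinc finger regulator of brown fat, had -26.6, -49.1 and -49.3 points. The remaining named runs lay between genes on chromosome 22 from 48710001 and on chromosome 1 from 213589001.

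Of 22862 genes with an assayable promoter, 3557 (15.6%) had a promoter DMR, that is, one within 2 kb of any annotated TSS of the gene. Alternative TSSs inside a gene count as well, so a promoter DMR can lie far from the main TSS. By the largest promoter DMR, 1878 (8.21%) were hypermethylated in LY75-KO-S and 1679 (7.34%) hypomethylated. A further 29 genes had promoter DMRs in tiles outside the assayable set, giving 3586 genes in all. Of these, 411 had 2 or more promoter DMRs, and in 235 of them (57.2%) the DMRs had both directions. Of the genes named here, BCOR, CABIN1, DENND2A, FOXL3, GMFG, HOXA-AS3, HOXA3, HOXA6, ITGB2 and L3MBTL1 are among these 235. So are PLCH2, ROBO3, SLC16A3, SMAD3, THOC2, TNFRSF8, WNT5B, ZBTB4 and ZNF426. A value given for any of these genes is that of a tile and not of the promoter as a whole. The second tile had -100.0 points at THOC2, 95.2 points at SMAD3 and -54.1 points at L3MBTL1. The knockdown table had a promoter DMR in 7614 of the 22862 assayable genes (33.3%), and 29.4% of 2352 genes with both directions. A promoter DMR of 50 points or more was listed for 1272 genes and one of 70 points or more for 519. By type, 2776 of the genes were protein-coding, 593 were long non-coding RNA genes and 127 microRNA genes. Genes of these types with an assayable promoter numbered 17315, 3874 and 831, so the counts roughly follow what could be assayed.

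In 104 genes the promoter DMRs, 2 or more per gene, were hypermethylated throughout, and in 76 of these at least 2 of them lay within 2 kb of the same TSS. The genes described next had the largest mean difference among these 76. ARHGAP4, a GTPase-activating protein on X, had 100.0 points at 1714 bp downstream and 78.7 points (q = 5.74e-71) at 287 bp upstream of its TSS. DLL4, a Notch ligand of vessel sprouting with its TSS at 41221538 on chromosome 15, had 78.4 points (q = 1.28e-51) 538 bp upstream, in the tile whose fragment is shown above, and 100.0 points (q = 1.51e-20) 1463 bp downstream. KLHDC1, a kelch-domain gene, had 100.0 points (q = 9.09e-140) over the TSS and 72.2 points (q = 1.63e-76) in the next tile. Hypermethylation thus lay on both sides of the TSS at ARHGAP4 and DLL4.

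On X, ARMCX1, an armadillo-repeat protein of mitochondria, had 66.9 points over the TSS and 99.2 points beside it. NEXMIF, a gene of neurite extension, had 100.0 points (q = 5.16e-94) over the TSS and 38.0 points downstream, and C1GALT1C1, the chaperone of the enzyme that extends O-glycans, had 29.3 and 92.9 points. With ARHGAP4, 4 of the 12 genes with the largest mean difference among the 76 lay on X. Of all 3586 genes with a promoter DMR, 3294 lay on autosomes. The metabolic gene MLXIPL, the glucose-responsive factor ChREBP, had 100.0 points (q = 6.70e-63) and 29.1 points. AKR1C2, a steroid-reducing enzyme, had 62.5 and 63.6 points in tiles with 5 and 8 CpGs, and TIAM2, an activator of Rac, 100.0 and 26.0 points. The TSS of the TIAM2 tiles, at 155450306, lies inside the gene, which starts at 155153831 on the plus strand. At MT1F, a metallothionein, both tiles had 64.1 points and the same q (3.02e-22), so they may hold the same reads. ATP6V1D, a proton pump subunit, had 65.3 and 81.9 points and LINC02731 had 32.7 and 97.1 points.

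In 72 genes the promoter DMRs, again 2 or more per gene, were hypomethylated throughout, and 57 of these had at least 2 within 2 kb of the same TSS. HOXA5, a homeobox factor of body patterning, had -100.0 points (q = 2.46e-17) in the tile 701 bp upstream of its TSS and -64.2 points (q = 1.49e-45) in the next. Both tiles also lie in promoters of HOXA-AS3, and the second in that of HOXA6. TCF7L2, the transcription factor of Wnt signalling also named TCF4, had -48.3 points (q = 8.87e-08) and -100.0 points (q = 1.99e-20) around an alternative TSS at 114886449 on chromosome 10. RPS25, a ribosomal protein, and TRAPPC4, a vesicle tethering factor, share tiles of -48.6 and -99.4 points (q = 6.03e-35). MIR517A and MIR519D, of the placental microRNA cluster of chromosome 19, share tiles of -66.0 and -100.0 points, so that each pair is 1 measurement.

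Most others of this group had 1 strong and 1 weaker tile. NHERF1, a scaffold protein of epithelial membranes, had -47.4 and -91.4 points (q = 1.09e-41), LENG9 had -37.2 and -100.0 points (q = 5.06e-44) and ZFP14, a zinc finger gene, -100.0 and -33.7 points. MIR3163 had -61.5 and -76.5 points and PTOV1-AS2 -100.0 and -50.0 points. SMPD4BP had -27.2 and -100.0 points, and reads of this pseudogene may be shared with its near-identical copies.

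**Figure D5:**
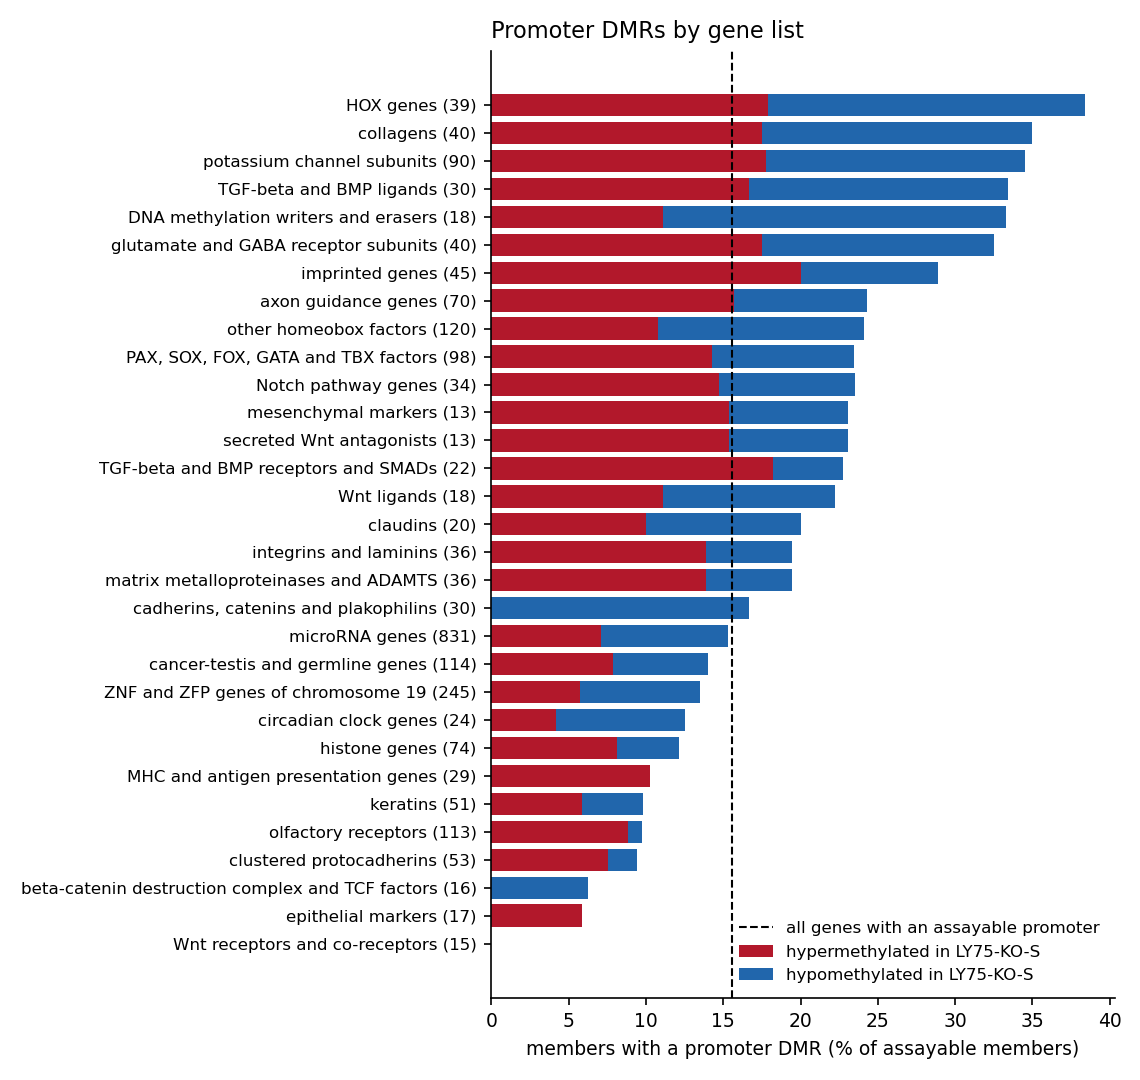
Share of assayable members of each gene list with a promoter DMR, in percent, split into hypermethylated (red) and hypomethylated (blue) in LY75-KO-S by the largest promoter DMR, with the number of assayable members in brackets and the 15.6% of all assayable genes as a dashed line. HOX genes stand highest, at 38.5%, and Wnt receptors had none.

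Gene lists are described by counts against the 15.6% of all assayable genes, with no test. A gene with more assayable promoter tiles has more chances of a promoter DMR. The shares were not adjusted for this, so its part in shares above or below 15.6% is unknown. The epithelial markers were below it: 1 of 17 had a promoter DMR, OVOL2, a zinc finger repressor of mesenchymal genes, with 37.9 points (q = 2.44e-25). CDH1, EPCAM and EMP1 had none here, and 10 of the 17 (58.8%) had one in the knockdown table, where the share of all assayable genes was 33.3%. Of 13 assayable mesenchymal markers 3 had a promoter DMR (23.1%). TWIST1, an inducer of EMT, had 60.2 points (q = 1.33e-127) in a tile with 87 CpGs. MMP2, gelatinase A, had 53.0 points (q = 7.47e-16) and ACTA2, smooth muscle actin, had -33.9 points (q = 2.10e-09). CDH2, FN1, SNAI1 and VIM had none. In the knockdown table the largest promoter DMR was 33.6 points for TWIST1 and -50.0 points for MMP2.

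Wnt signalling passes from ligands through Frizzled and LRP receptors to β-catenin, which a destruction complex removes when the pathway is off, and to TCF factors. Of 18 assayable Wnt ligands 4 had a promoter DMR: WNT5B with 54.1 points (q = 1.00e-14), WNT7A with -47.1 points (q = 1.17e-19), WNT7B with 27.1 points and WNT5A with -25.4 points. None of the 15 receptors and co-receptors had one. Among 13 secreted antagonists, WIF1 had -55.6 points (q = 3.25e-11), SFRP1 39.2 points (q = 9.75e-11) and DRAXIN 25.2 points (q = 1.68e-17). In the destruction complex and TCF factors, 1 of 16 had a promoter DMR, and that was TCF7L2. Ligands and antagonists were thus listed in both directions.

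In the TGF-β and BMP family, 10 of 30 assayable ligands (33.3%) had a promoter DMR, 5 in each direction. TGFB2, a TGF-β isoform, had 100.0 points (q = 1.32e-13) in a tile with 6 CpGs, and GDF7 had 52.1 points (q = 1.76e-36). BMP8B had -59.1 points (q = 9.12e-79) and GDF10 -50.8 points. Of 22 receptors and SMADs, 5 had a promoter DMR, 4 of them hypermethylated. SMAD3, the signal transducer of TGF-β, was the hypomethylated one, at -100.0 points (q = 5.55e-23), with a second promoter DMR in the other direction. ENG, the co-receptor endoglin, had 51.2 points, BMPR2 38.2 points (q = 7.73e-46) and ACVR1C 31.8 points (q = 1.15e-34).

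The HOX genes, which encode position along the body axis, had the highest share of any list, 15 of 39 (38.5%), with 7 hypermethylated and 8 hypomethylated over 17 distinct tiles. HOXA held 5 of them, in both directions. Besides HOXA5, HOXA6 had 65.1 points, HOXA3 -52.9 points and HOXA7 37.9 points. HOXC held 6, with HOXC5 and HOXC6 at a shared tile of -77.8 points (q = 3.45e-23). All 3 of the HOXD genes with a promoter DMR were hypomethylated: HOXD1 with -66.3 points, HOXD13 with -50.5 points and HOXD10 with -25.5 points. In HOXB, 1 of 10 had one, HOXB3 with 48.1 points. The knockdown table had a promoter DMR in 74.4% of the HOX list, beside 33.3% of all assayable genes.

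Other developmental factors lay above the background as well. Of 98 assayable PAX, SOX, FOX, GATA and TBX factors, 23 (23.5%) had a promoter DMR, 14 hypermethylated. FOXP1, a forkhead factor of many tissues, had 100.0 points (q = 1.10e-19), FOXJ2 -100.0 points, FOXL3 -71.0 points and TBX6 63.6 points. Of 120 other homeobox factors, 29 (24.2%) had one, 16 hypomethylated. LHX6, a factor of cortical interneurons, had -100.0 points (q = 2.54e-26), BARX1 -64.0 points and LHX9 -54.4 points. By contrast, 33 of 245 ZNF and ZFP genes of chromosome 19 (13.5%) had one, with ZNF101, ZNF426 and ZNF708 each at 100.0 points and ZFP14 at -100.0 points.

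Among adhesion genes, 5 of 30 assayable cadherins, catenins and plakophilins had a promoter DMR (16.7%, near the 15.6% of all assayable genes). All 5 were hypomethylated, a direction listed for 7.34% of all assayable genes. They included JUP, plakoglobin of desmosomes and adherens junctions, with -62.0 points (q = 4.53e-46), CDH24 with -50.0 points and CDH23 with -46.6 points. CDH10, whose promoter has no assayable tile, had 97.6 points (q = 8.02e-25). Of 20 claudins, which seal tight junctions, 4 had one: CLDN18 with -39.0 points, CLDN17 with 32.8 points, CLDN9 with 29.4 points and CLDN1 with -25.6 points. CLDN2, outside the assayable set, had -36.4 points. Of 53 clustered protocadherins, 5 (9.43%) had one in 4 distinct tiles. PCDHGA6 and PCDHGB3 share a tile of 82.8 points, PCDHA5 had 59.9 points (q = 3.53e-213) and PCDHA12 -47.9 points.

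Matrix genes were listed in both directions. Of 40 collagens, 14 (35.0%) had a promoter DMR, 7 in each direction, over 12 distinct tiles. COL4A5 and COL4A6, chains of basement membrane collagen that share a promoter on X, had -66.7 points (q = 4.97e-29), COL20A1 -61.1 points and COL25A1 59.9 points (q = 2.25e-54). Integrins and laminins had 7 of 36, with ITGB2, the leukocyte β2 integrin, at -100.0 points (q = 4.09e-37) beside 1 hypermethylated tile among its 3 promoter DMRs, ITGAV at 56.2 points, LAMA2 at 44.9 points and ITGAM at 34.9 points. Matrix metalloproteinases and ADAMTS had 7 of 36, with ADAMTS2, which trims procollagen, at -100.0 points, ADAMTS13 at 66.7 points, MMP2 at 53.0 points and ADAMTS1 at 50.0 points. Keratins had 5 of 51 (9.80%), with KRT42P at 50.8 points, KRT23 at -46.5 points, KRT27 at 43.0 points and KRT77 at -39.5 points.

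Ion channel, receptor and axon guidance lists had shares above the background. Of 90 potassium channel subunits 31 (34.4%) had a promoter DMR, 16 hypermethylated and 15 hypomethylated. KCNE4 had 100.0 points (q = 8.58e-39), KCNN1 96.2 points, KCNMB1 -69.2 points and KCNIP2 -60.0 points. Glutamate and GABA receptor subunits had 13 of 40 (32.5%), with the AMPA receptor genes GRIA1 at 97.9 points and GRIA3 at -90.9 points, GRIK2 at -61.9 points and GRIN3A at 51.8 points. Axon guidance genes had 17 of 70 (24.3%), 11 hypermethylated. The 4 largest were hypomethylated: EFNB1, an ephrin, and ROBO3, a Slit receptor family member, at -100.0 points, PLXNA1, a semaphorin receptor, at -92.3 points, and EPHB4, an ephrin receptor, at -91.6 points.

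Genes that set or read DNA methylation had a promoter DMR in 6 of 18 (33.3%), 2 hypermethylated and 4 hypomethylated. The de novo methyltransferases DNMT3B, with -100.0 points (q = 7.53e-17), and DNMT3A, with -48.6 points (q = 2.35e-11), and their cofactor DNMT3L, with -57.1 points (q = 6.51e-14), were hypomethylated. DNMT1, the maintenance enzyme, had 30.5 points (q = 5.79e-34) and UHRF1, which recruits it, 46.6 points (q = 7.24e-09). ZBTB4, a methyl-CpG binding repressor, had -100.0 points (q = 2.71e-08) with a second promoter DMR in the other direction. TET1, TET2 and TET3, which oxidise methylcytosine, had no promoter DMR. The tiles of DNMT3A, DNMT3B and DNMT3L hold 34, 13 and 13 CpGs, and expression was not measured here. Each tile lies within 2 kb of an annotated TSS of its gene, which may be an alternative one. The main promoters were not examined separately.

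Imprinted genes, which are methylated on one parental copy in most tissues, had a promoter DMR in 13 of 45 (28.9%), 9 hypermethylated. L3MBTL1 had 85.6 points (q = 3.06e-59) in a tile with 52 CpGs, RTL1 78.0 points and MEG3 54.3 points. GRB10 had 53.8 points (q = 4.41e-62) in a tile with 125 CpGs. Further members, chosen after their values had been seen, were H19 with -45.1 points (q = 8.64e-34), IGF2 with 43.1 points (q = 8.64e-56) and SNRPN with 32.4 points (q = 1.66e-33). The SNRPN tile, from 25200001 on chromosome 15, holds 71 CpGs. MEG3 and RTL1 belong to 1 imprinted domain of chromosome 14, and the nearby microRNAs MIR1185-1, MIR1185-2, MIR300 and MIR376A1 share a tile of 100.0 points (q = 1.13e-24). In the same domain MIR127, MIR136, MIR431, MIR432 and MIR433 share a tile with 57 CpGs in the other direction, at -45.2 points (q = 4.57e-14).

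Of 831 microRNA genes with an assayable promoter, 127 (15.3%) had a promoter DMR, over 114 distinct tiles, 59 hypermethylated and 68 hypomethylated. That share lies near the background. MIR375, a microRNA of pancreatic islets, had 100.0 points (q = 4.22e-13). Cancer-testis and germline genes had 16 of 114 (14.0%), with MAGEB1 and MAGEB4, which share a tile on X, at -100.0 points (q = 5.79e-36), MAGEC3 at -100.0 points and TEX41 at 100.0 points. Histone genes had 9 of 74 (12.2%), led by H1-8, the oocyte linker histone, at -100.0 points (q = 4.31e-31), H1-7 at 54.7 points, and H2AC11 and H2BC11 at a shared tile of -45.6 points.

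Olfactory receptor genes had a promoter DMR in 11 of 113 (9.73%), and 10 of the 11 were hypermethylated, a share of 8.85% of the assayable members against 8.21% over all genes. OR2V1 and OR7A17 had 100.0 points, OR8B8 99.0 points (q = 9.07e-65) and OR7G3, in the other direction, -56.4 points. Antigen presentation genes had 3 of 29 (10.3%), all hypermethylated: NLRC5, the transactivator of MHC class I genes, with 35.7 points, CD1D with 32.8 points and TAPBP, tapasin, with 29.1 points.

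The tiles were set beside those of the knockdown table. The comparisons share no library, but they are not independent, since LY75-R-S descends from sh-LY75-S, and the part of this descent in the shared tiles and signs was not tested. Of the 28282 DMRs, 8345 were also listed there, 29.5% of the DMRs here and 16.3% of those there, 4387 with the same sign and 3958 with opposite signs. Of the assayable DMRs here 30.5% were listed there, as were 12.4% of all assayable tiles. In neither of the other 2 tables were 17277 of the DMRs (61.1%) listed, and the mix listed 5.14% of all assayable tiles. At 70 points or more in both comparisons, 28 promoter tiles had the same sign. NLRC3, a negative regulator of innate immune signalling, GMFG, an actin regulator, OR7A17, ZSCAN5C and NRG3-AS1 were at 100.0 points in both, as was UNC5CL. A tile each of ITGB2 and CABIN1, an inhibitor of calcineurin, was at -100.0 points in both. Some further promoter tiles of these genes had the opposite direction. CABIN1 had 56.7 points here (q = 8.75e-200) and 66.1 points in the knockdown at a tile with a far smaller q than the first (4.16e-17), ITGB2 had 33.7 and -50.0 points here and 68.9 to 100.0 points in the knockdown at its other tiles, and GMFG had -33.4 points here. Opposite signs at this size were listed for 23 promoter tiles.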

How the data were processed

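DNA methylation was measured by RRBS in 4 SKOV3 libraries, 1 per clone. Per the labels and the submitters' processing notes, reads of 50 bp were checked with FastQC, trimmed (Trim Galore 0.4.1 in the notes, Trimmomatic in the protocol), aligned to hg19 with Bismark 0.16.1 and compared in methylKit, whose version is not given in the sources used here. The authors' deposited tables hold, per tile of 1000 bp, a p-value, its q-value and a difference in percent methylation of at least 25 points, each comparing 2 libraries (all 4 in the mix). These columns are the authors' own comparison and were used because the table itself is described here. The deposited tables keep tiles with q under 0.01, whereas the methods state 0.05. The coverage minimum is not given in the sources used here. Depth is unknown, and RRBS reads carry no molecular identifiers.

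Tiles were counted by sign, size, chromosome and feature. CpGs and MspI fragments of 40 to 220 bp came from GRCh37, and genes with a RefSeq symbol, TSSs and exons from GENCODE release 44 on GRCh37. Sequences were read from GRCh37. Genes were named by rule: the 12 per direction with the largest mean difference among genes with 2 or more DMRs within 2 kb of 1 TSS and all promoter DMRs of 1 direction, the mean taken over the 2 largest, the 5 longest runs per direction, LY75 and its neighbours, up to 4 members per list with the largest difference, and up to 8 promoter tiles at 70 points or more in both single comparisons. Genes named outside it, and the Notch and clock lists, were chosen after their values had been seen. Some genes and sequences that meet these rules are not reported here. The members, gene lists and alternatives were chosen with earlier results of these data known. Shares have 95% Wilson intervals, which cover counting error only. No test between conditions was possible with 1 library per clone. Tile, pair and fragment counting was tested on simulated data. Python 3.11.15, pandas 2.3.3, NumPy 2.4.6, SciPy 1.17.1, pysam 0.24.0 and matplotlib 3.10.9 were used.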

Additional observations from a re-analysis of the deposited data

Results flagged for a closer look

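The promoter tiles of 7 genes differed completely or nearly so in both single comparisons, but in opposite directions. The difference between the comparisons was not tested, since each rests on 1 library per clone, and LY75-R-S descends from the knockdown clone. BMAL1, a core factor of the circadian clock, had 100.0 points between LY75-KO-S and LY75-R-S (q = 5.78e-43, 9 CpGs) and -100.0 points in the knockdown comparison. PLAC8 had -100.0 points here (q = 5.89e-48, 40 CpGs) and 100.0 points in the knockdown. BTNL8, a butyrophilin-like gene of the gut, and DENND2A had -100.0 points here, each against 100.0 points, and another promoter tile of DENND2A had 53.6 points here. MIR4294 had -100.0 points against 98.9, CDK5RAP3 -97.4 points against 100.0, and ANXA9, an annexin, -96.7 points against 100.0. At 70 points or more in both comparisons, 28 promoter tiles had the same sign and 23 the opposite one. Over all 8345 DMRs listed in both, 4387 had the same sign and 3958 opposite signs, so opposite signs were not particular to these tiles.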

How the results depend on the processing

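No replicate could be left out and no paired analysis was possible because each clone had 1 library. Of 58 values under alternatives, 34 stayed within the interval or 1.5 times the count reported, 22 moved beyond it and 2 reversed. With the opposite order of subtraction, the hypermethylated share would be 45.3% of DMRs and 47.2% of genes with a promoter DMR. At 50 points or more there were 10603 DMRs with a median of 65.7 points, 22.5% in promoters or exons, and 1272 genes with a promoter DMR. At 70 points or more these values were 4698, 100.0 points, 20.6% and 519. With q at or below 1e-10 there were 18762 DMRs, 55.4% hypermethylated, with a median of 48.2 points and 25.7% in promoters or exons. Tiles with at least 10 CpGs had a median of 41.0 points and 27.6% in promoters or exons, and without tiles at 100 points the median was 39.3 points. The share in promoters or exons, 24.8% as reported, was 22.2% with promoters of 1 kb, 30.7% with 5 kb, where 5808 genes had a promoter DMR, and 21.9% with protein-coding genes alone. Adjacent pairs of the same direction, with alternatives chosen after seeing the data, were 50.0% at 40 CpGs or more, 63.0% at 70 points or more and 59.1% with q at or below 1e-20, over 54, 46 and 110 pairs. Fewer tiles enter each stricter setting by its construction. The 2 reversals, both under the opposite order of subtraction, and the moves of the median under cuts on size were likewise fixed in advance. The tally is therefore no measure of robustness. Depth is unknown, so the precision of each difference is too.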

Other observations

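Genes of Notch signalling, in which membrane ligands on one cell activate receptors on the next and induce HEY and HES repressors, were examined as a list after DLL4 and HEYL had been seen, so their place in it is no support. A promoter DMR was listed for 8 of 34 assayable members (23.5%, beside 15.6% of all assayable genes), 5 hypermethylated and 3 hypomethylated in LY75-KO-S. Among the ligands, DLL4 had 100.0 and 78.4 points, DLL1 30.0 points and JAG2 -34.6 points (q = 1.13e-28), and DLK2, a related non-canonical ligand, 40.7 points. The targets also had both directions, with HEYL at 99.9 points and HES5 at -33.7 points, while LFNG, which modifies the receptors, had -27.0 points (q = 3.22e-76). DLL3, an inhibitory ligand, had an exonic tile of 66.6 points (q = 6.58e-195, 75 CpGs). In the knockdown comparison 19 of the 34 members (55.9%) had a promoter DMR, beside 33.3% of all assayable genes.

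The circadian clock list, likewise made after BMAL1 had been seen, had a promoter DMR in 3 of 24 members (12.5%). BMAL1, which drives the clock, had 100.0 points, and NR1D1, a nuclear receptor that represses it, had -93.8 points (q = 3.28e-21). PER3, a repressor of the clock, had an exonic tile of 66.2 points (q = 2.82e-158, 41 CpGs). At the identical tiles the knockdown comparison had -100.0 points for BMAL1 and -49.2 points for PER3.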
